A study of Mus musculus with 2 samples.

Results

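The oligodendrocyte microRNAs miR-219 and miR-338 were examined in mouse hippocampus through the 5 annotated genes that carry them. Mir219a-1, Mir219a-2, Mir219b, Mir219c and Mir338 were taken by symbol from GENCODE annotation M21, and all 5 were among the 2202 microRNA genes of the deposited count tables. The tissue came from male B6CASTF1/J mice aged 2 months, a first-generation hybrid of C57BL/6J and CAST/EiJ. The labels give 1 group with biological replicates 1 and 2, taken as separate biosamples under 1 donor entry. No treatment, second genotype or control group was present, so values are set between genes, between strands and between the replicates. Spread and p-values cover the difference between these 2 libraries, which may not cover the difference between animals.

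MicroRNAs are short RNAs cut from a folded precursor, the hairpin, whose arms give a 5p and a 3p product. A product pairs with messenger RNAs mainly through its seed, bases 2 to 8. In the central nervous system miR-219 and miR-338 are known for their rise as oligodendrocyte precursors become myelinating cells, and miR-219 is known to repress genes that keep precursors immature, among them Pdgfra, Sox6, Foxj3 and Zfp238. Both microRNAs have also been described in neurons, so a bulk sample of hippocampus does not assign their reads to a cell type. Fewer cells of a type and less RNA per cell cannot be told apart here.

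The genes form 3 pairs on opposite strands, and the sequences show which reads could be told apart. The products below are from RefSeq on GRCm38.p6, written 5′ to 3′ with the seed in capitals, and were chosen because members share them or carry each other's complement. miR-219a-5p is given by both Mir219a genes, miR-219b-3p and miR-219c-3p come from the strand opposite it, and miR-3065-5p comes from the strand opposite miR-338-3p.
miR-219a-5p: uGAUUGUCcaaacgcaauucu
miR-219b-3p: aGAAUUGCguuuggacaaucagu
miR-219c-3p: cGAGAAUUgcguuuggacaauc
miR-219a-1-3p: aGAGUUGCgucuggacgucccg
miR-338-3p: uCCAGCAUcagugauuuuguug
miR-338-5p: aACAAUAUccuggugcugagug
miR-3065-5p: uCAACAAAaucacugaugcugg

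All 21 bases of miR-219a-5p are the reverse complement of a stretch of miR-219b-3p, and 20 of them of a stretch of miR-219c-3p. miR-338-3p and miR-3065-5p are complementary over 21 bases. Where both strands are annotated, only the strand of a read separates such a product from its complement. The 9 table entries for products of the 5 genes hold 8 distinct sequences and 8 distinct seeds, and no other product among the table's 1738 entries has the seed of any of them. The table has no entry for miR-219a-2-3p, so the numbers of sequences and seeds leave it out. Read counts are per gene and do not depend on these entries. miR-219a-5p and the products of Mir338 have different seeds, and miR-219b-3p and miR-219c-3p do not carry the seed of miR-219a-5p.

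Mir219a-1 and Mir219a-2 lie on different chromosomes and share the stretch in capitals below, which is miR-219a-5p with 1 base before it. These are the hairpins from RefSeq, shown because a read inside the shared stretch matches both loci.
Mir219a-2: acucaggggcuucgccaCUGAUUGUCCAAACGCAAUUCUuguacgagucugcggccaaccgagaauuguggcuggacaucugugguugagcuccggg
Mir219a-1: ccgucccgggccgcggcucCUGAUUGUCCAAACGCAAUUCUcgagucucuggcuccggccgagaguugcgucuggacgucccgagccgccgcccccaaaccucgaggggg

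The shared stretch is 22 nt long, and the hairpins are identical at 63.2% of their aligned positions. The 3p side of the hairpins differs between the loci. Mir338 shares no stretch of 20 nt or more with any other listed gene on its strand, so its reads had 1 annotated source there. Among detected genes, 84 of 401 share such a stretch with another microRNA gene. The hairpin of Mir219a-1 is 69.1% G and C, against 55.7% in Mir219a-2 and 56.1% in Mir338. Minimum free energies predicted by RNAfold were -58.7 kcal/mol for Mir219a-1, -48.2 kcal/mol for Mir219a-2 and -41.9 kcal/mol for Mir338. For the genes opposite them they were less negative, at -26.8 kcal/mol for Mir219c, -18.8 kcal/mol for Mir219b and -39 kcal/mol for Mir3065, whose annotated hairpins are also shorter.

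On mm10, Mir338 (ENSMUSG00000065600.1) lies at chr11:120014765-120014862 on the minus strand, in an intron of Aatk, a kinase gene of the nervous system transcribed from the same strand. Mir219a-2 (ENSMUSG00000065485.1) lies at chr2:29845631-29845727 on the minus strand, in no annotated host gene and 629 bp from the protein-coding gene Urm1. Mir219b (ENSMUSG00000105010.1) occupies chr2:29845647-29845711 on the plus strand, wholly inside the interval of Mir219a-2, and is its exact reverse complement over 65 nt. Mir219a-1 (ENSMUSG00000065555.1) lies at chr17:34024983-34025092 on the minus strand. It overlaps an exon of the noncoding gene Gm26940 by 88 nt and lies 303 bp from Ring1. Mir219c (ENSMUSG00000105964.1) is at chr17:34025012-34025071 on the plus strand, the exact reverse complement of Mir219a-1 over 60 nt. Mir338 has such a partner too, Mir3065, over 87 nt.

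**Figure D1:**
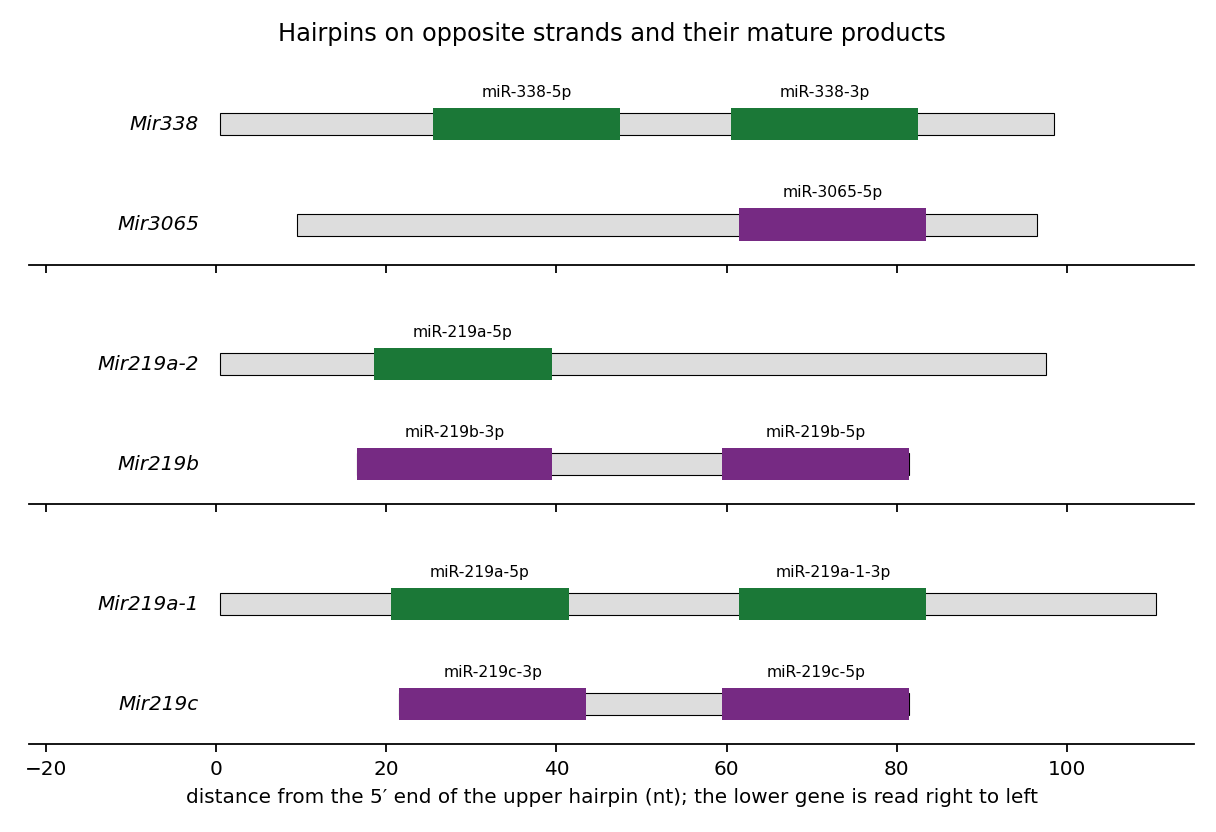
Annotated hairpins (grey) of the 3 opposite-strand pairs against distance in nt from the 5′ end of the upper hairpin, with RefSeq mature products of the upper gene in green and of the lower gene in purple; miR-219a-2-3p is not drawn. Each lower hairpin lies inside the upper one, by 87 nt, 65 nt and 60 nt from top to bottom.

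Replicate 1 held 2322520 counts on microRNA genes and replicate 2 held 3414105, and multimapping reads, 42.6% and 46.0% of the libraries, were in no gene's count. Values are same-strand counts or CPM, counts scaled to a sum of 1000000 over all microRNA genes. A microRNA read spans a product whatever the length of its hairpin, so levels were not divided by length. Detection required at least 2 CPM in each library, a level that 18.2% of the listed genes reached. A count of 0 allows up to 3 counts, equal to 1.29 CPM (replicate 1) and 0.879 CPM (replicate 2). Of the 5 members 3 were detected, namely Mir338, Mir219a-2 and Mir219a-1. The neuron-associated list had 10 of 12 members detected and reached 33052 CPM (replicate 1) and 47686 CPM (replicate 2) in all. Its miR-124 genes had few placed reads, with Mir124a-1 at a mean of 2.90 CPM and Mir124a-2 and Mir124a-3 not detected. Reads that match several loci were in no gene's count, so these values do not measure how much miR-124 the tissue held. The sum of the list leaves such reads out as well. Mir138-1 and Mir138-2 are also on the oligodendrocyte-lineage list used below, so this sum does not separate the cell types.

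Mir338 and Mir219a-2 gave nearly all reads of the group. Mir338 had 4438 counts in replicate 1 and 6184 in replicate 2, or 1911 CPM (Wilson 95% interval 1856 to 1968) and 1811 CPM (1767 to 1857). It was close to level in the libraries, at a mean of 1861 ± 70.4 CPM (SD, n = 2), and ranked 66 among all listed genes by mean. Mir219a-2 had 5683 counts in replicate 1 and 2953 in replicate 2, or 2447 CPM (2384 to 2511) and 865 CPM (834 to 897). Replicate 1 was thus the higher library for Mir219a-2 by a wide margin, its mean was 1656 ± 1119 CPM (SD, n = 2), and its rank was 54 in replicate 1 and 99 in replicate 2. Intervals cover counting error only, since PCR copies of a molecule were not told apart.

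Mir219a-1, the other source of miR-219a-5p, had 21 counts in replicate 1 and 24 in replicate 2, or 9.04 CPM (5.91 to 13.8) and 7.03 CPM (4.72 to 10.5). Its intervals overlap between the libraries, and it ranked 323 by mean. Mir219c had 2 counts in replicate 1 and 0 in replicate 2, and Mir219b had 0 in both, so both lay within what a count of 0 allows. Together the 5 genes reached 4368 CPM (replicate 1) and 2683 CPM (replicate 2), a mean of 3525 ± 1191 CPM (SD, n = 2), or 0.353% ± 0.119 of microRNA-gene counts.

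**Figure D2:**
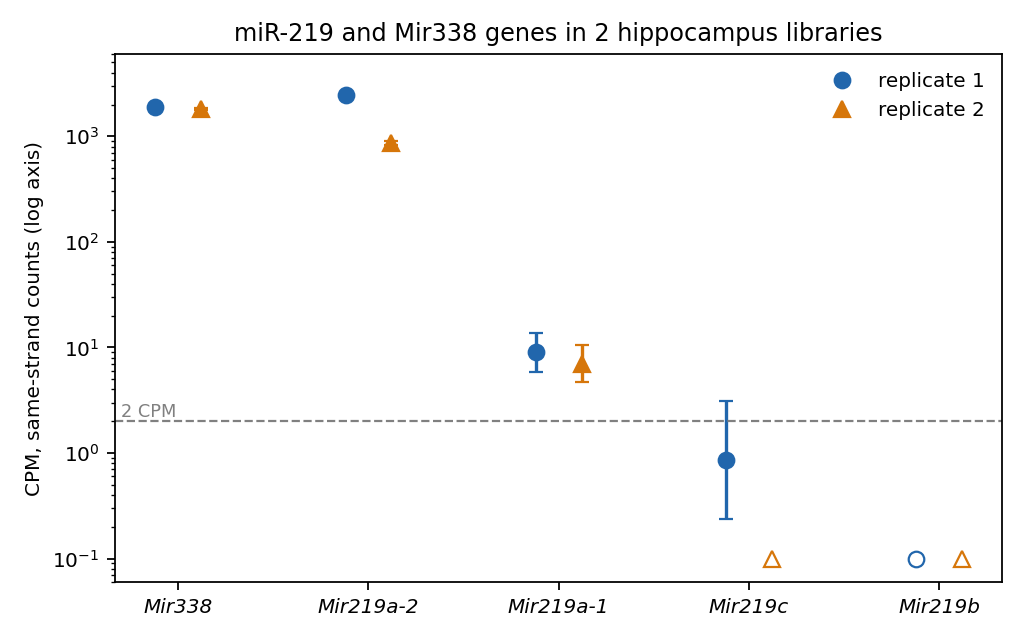
CPM on a log axis of the 5 genes in replicate 1 (blue circles) and replicate 2 (orange triangles), with Wilson 95% intervals; open symbols mark a count of 0, drawn at 0.1 CPM, and the dashed line is the detection minimum of 2 CPM. Mir338 lies at 1911 and 1811 CPM, Mir219a-2 at 2447 and 865 CPM, and Mir219a-1 at 9.04 and 7.03 CPM.

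The order of Mir338 and Mir219a-2 was not the same in the libraries. Within a library, the ratio of Mir219a-2 to Mir338 counts was 1.28 in replicate 1 and 0.478 in replicate 2. Mir219a-2 made up 56.2% of the reads of the pair in replicate 1 (Wilson 95% interval 55.2 to 57.1) and 32.3% in replicate 2 (31.4 to 33.3). These shares do not depend on library scaling, and their intervals do not overlap. The ratio's spread over the replicates spans 1, so neither gene can be placed above the other in this tissue. Reads inside the stretch shared with Mir219a-1 entered no count, which lowers Mir219a-2 by an unknown amount. Mir338 shares no such stretch, so the ratio compares placed reads and not the output of the genes. Mir219a-2 and Mir338 both stood far above Mir219a-1, by 271-fold and 123-fold for Mir219a-2 and by 211-fold and 258-fold for Mir338, in replicates 1 and 2.

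Strand information decided whether these genes were seen at all. In the same-strand column the members held 10144 counts in replicate 1 and 9161 in replicate 2, and in the column of both strands together they held 0 and 1. Mir338 had 4438 and 6184 same-strand counts, against 0 and 0 with both strands together and 4 and 5 on the opposite strand. Mir219a-2 had 5683 and 2953 same-strand counts, against 0 and 1 with both strands together and 0 and 0 on the opposite strand. Mir219a-1 had 21 and 24 same-strand counts, against 0 and 0 with both strands together and 2 and 0 on the opposite strand. Apart from that 1 read of Mir219a-2, every read of a member overlapped the annotated span of a gene on the other strand.

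The opposite-strand column held the mirror image. Mir219b, listed at 0 on its own strand, had 5683 and 2952 counts there in replicates 1 and 2, and Mir219c had 21 and 24. Mir3065 had 4 and 5 same-strand counts, against 4438 and 6184 on the opposite strand. Mir219a-2 exceeded Mir219b at least 1894-fold in replicate 1 and at least 984-fold in replicate 2, taking 3 counts per library as the limit for Mir219b. Mir338 exceeded Mir3065 1110-fold and 1237-fold, imprecise ratios that rest on the 4 and 5 counts of Mir3065. At the Mir219a-1 locus 21 of 23 reads in replicate 1 were on its strand (91.3%, Wilson 95% interval 73.2 to 97.6) and 24 of 24 in replicate 2 (86.2 to 100).

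**Figure D3:**
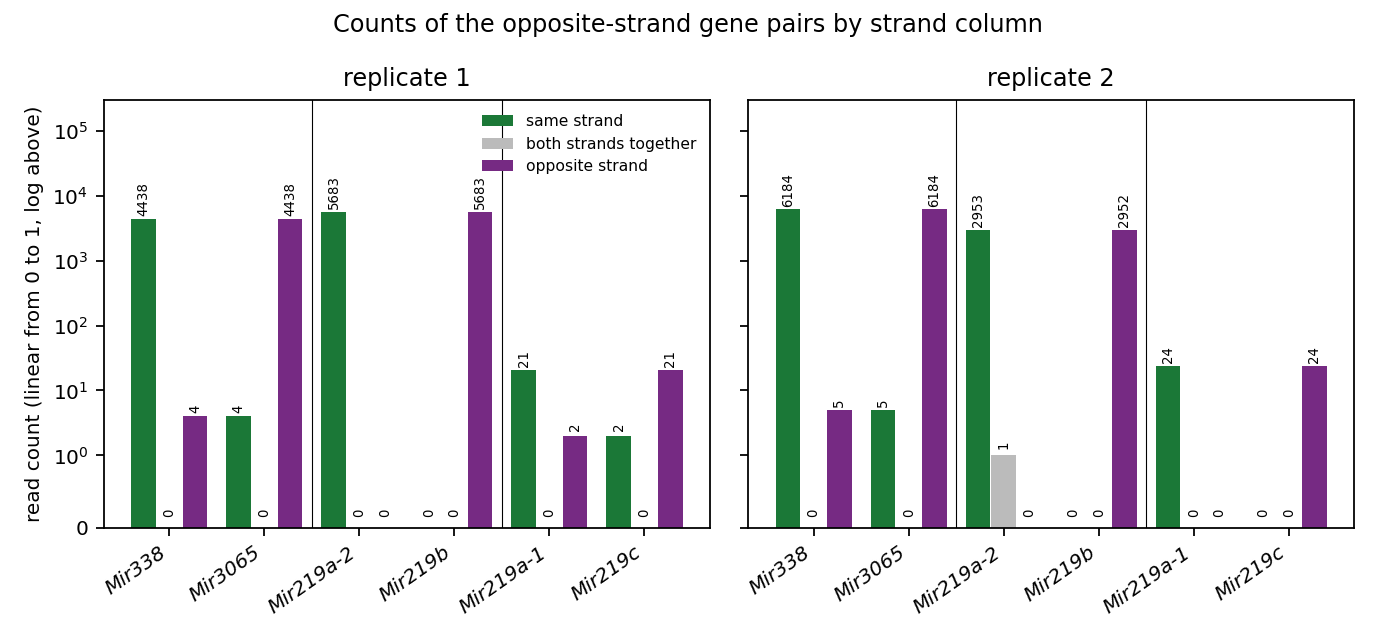
Read counts of the 3 opposite-strand pairs in the same-strand (green), both-strand (grey) and opposite-strand (purple) columns of replicate 1 (left) and replicate 2 (right), on an axis that is linear from 0 to 1 and logarithmic above. The green bars of Mir338, Mir219a-2 and Mir219a-1 recur as purple bars of their partners, with 1 read less for Mir219b in replicate 2, and the grey bars hold 0 or 1 read.

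This loss was common to genes built in the same way. The annotation holds 32 pairs of microRNA genes that overlap on opposite strands, and 26 of them had a detected gene. By the mean of their higher gene, the Mir338, Mir219a-2 and Mir219a-1 loci ranked 6, 8 and 26 among the 32. The detected genes of such pairs kept 0.00586% of their same-strand counts in the column of both strands together in replicate 1 and 0.00671% in replicate 2, against 0% and 0.0109% for the members. Reads at the 3 loci equalled 5.95% of the reads set aside as ambiguous with both strands together in replicate 1 and 3.62% in replicate 2. In 16 of the 26 pairs the second gene had 0 counts in both libraries, as Mir219b did, and both genes were detected in 1 pair, Mir24-1 and Mir3074-1, named after its values were seen.

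Mir219a-2 and Mir219a-1 were farther apart than any other pair of detected genes with an identical product. RefSeq gave an identical mature product to 59 pairs of annotated genes at separate loci, and in 23 of them both genes were detected. The other pairs were not ranked. A pair with its lower gene below the detection minimum could be wider apart, so the ranking holds among the 23 only. The ratio of the higher to the lower gene had a geometric mean over the libraries of 182 for Mir219a-2 over Mir219a-1, against a median of 5.02 over the 23 pairs. The next pairs, named by rank, were Mir181b-2 over Mir181b-1 at 99.2 and Mir181a-1 over Mir181a-2 at 49.2. The ratios of the 2 pairs after Mir219a differed little between replicates 1 and 2, at 99.9 and 98.6 and at 52.5 and 46.1, while that of Mir219a was 271 and 123. The Mir219a ratio rests on 21 and 24 counts of Mir219a-1, and its copies' shares of their summed reads were 0.368% for Mir219a-1 in replicate 1 (Wilson 95% interval 0.241 to 0.562) and 0.806% in replicate 2 (0.542 to 1.20). Reads that match both loci entered neither count, so these ratios describe reads that could be placed and not the output of miR-219a-5p from each locus. RefSeq products were matched to 1018 of the listed genes, and pairs outside them were not analysed here.

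**Figure D4:**
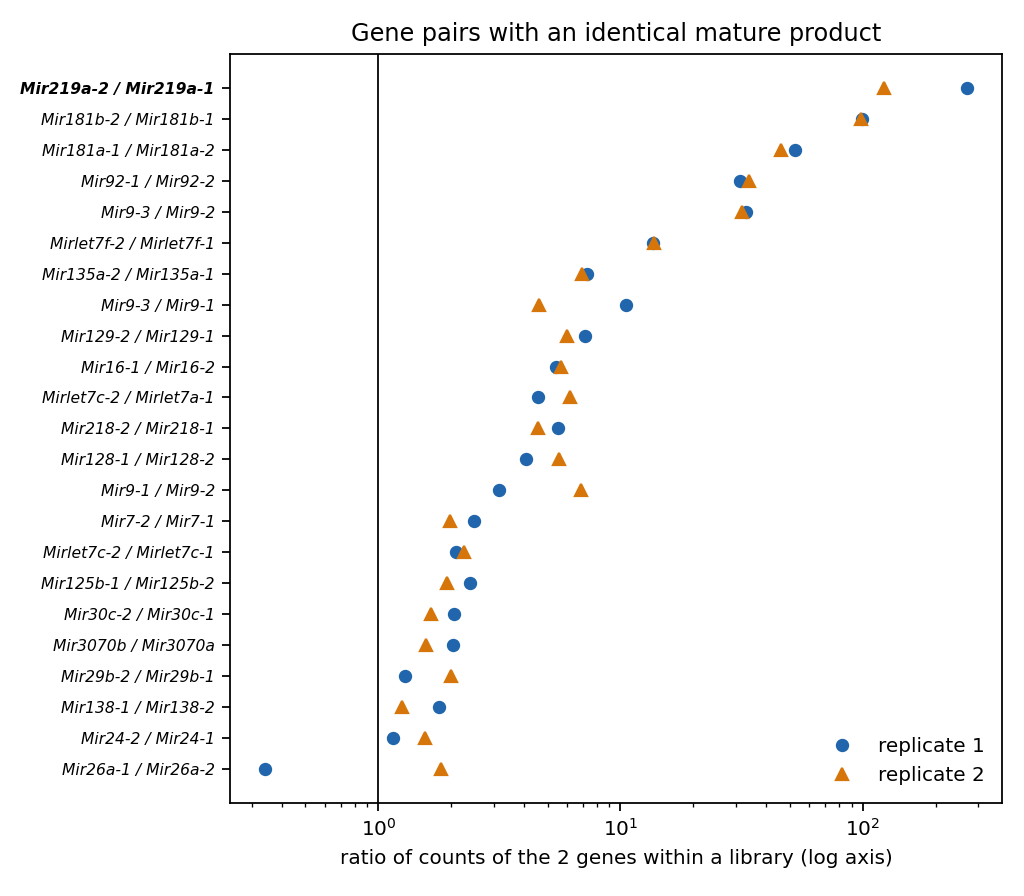
Ratio of counts of the higher to the lower gene, by mean CPM, within replicate 1 (blue circles) and replicate 2 (orange triangles) on a log axis, for the 23 detected gene pairs with an identical mature product; the black line marks equal counts. Mir219a-2 over Mir219a-1 lies at the top with 271 and 123.

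Between the replicates, Mir219a-2 differed by a large factor and Mir338 by a small one. By the exact binomial test with TMM library sizes and Benjamini-Hochberg adjustment over the 401 detected genes, 2 of the 3 detected members differed beyond counting error, both higher in replicate 1, where 50.9% of detected genes differed, 22.7% being higher and 28.2% lower in replicate 1. That test compares 2 libraries and not conditions, and at this depth a call alone says little about size. Mir219a-2 was 2.88-fold higher in replicate 1 (log2 ratio 1.53), with an adjusted exact binomial p too small for double precision to hold. Of the 401 detected genes 17, Mir219a-2 included, were at least that far apart, as were 5 of the 92 genes that averaged at least 1000 CPM. Mir338 was 1.07-fold higher in replicate 1 (log2 ratio 0.10, adjusted exact binomial p = 0.000811), and 70 detected genes lay closer to equality. Mir219a-1 had a log2 ratio of 0.39 (adjusted exact binomial p = 0.518) and did not pass. Detected genes had a median difference of 1.26-fold, and edgeR gave a biological coefficient of variation of 29.9%.

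Other measures also differed between the libraries, and their part in the difference of Mir219a-2 was not tested. The share of multimapping reads was 42.6% in replicate 1 and 46.0% in replicate 2. Marker lists of other cell types gave list sums on both sides of equality, and several lists held genes that differed in either direction. By the exact binomial test 50.9% of all detected genes differed, 22.7% being higher and 28.2% lower in replicate 1. The counts of list genes that follow stand beside those shares. The erythrocyte list, with 3 of 3 detected, reached 1922 CPM in replicate 1 against 1149 CPM in replicate 2. Its sum followed Mir451a, at 1807 against 1007 CPM, while Mir144 was lower in replicate 1, at 94.7 against 121 CPM, and Mir486 was at 20.7 against 21.4 CPM. The endothelial list, with 1 of 2 detected and Mir126b at 0, stood at 14889 against 12474 CPM. The neuron list had the lower sum in replicate 1, at 33052 against 47686 CPM, with 3 genes higher and 4 lower by the same test. Mir128-1, at 4518 against 16906 CPM, gave most of that gap, while Mir138-1, Mir138-2 and Mir132 were higher in replicate 1. The microglia and leukocyte list, with 4 of 5 detected, was at 1260 against 1598 CPM, with 1 gene higher, Mir146, and 2 lower. The mural list, with 2 of 2 detected and both lower in replicate 1, was at 6456 against 6935 CPM. The choroid plexus and epithelium list, with 9 of 12 detected and Mir449b at 0, was at 1237 against 1226 CPM, with 2 genes higher and 4 lower.

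**Figure D5:**
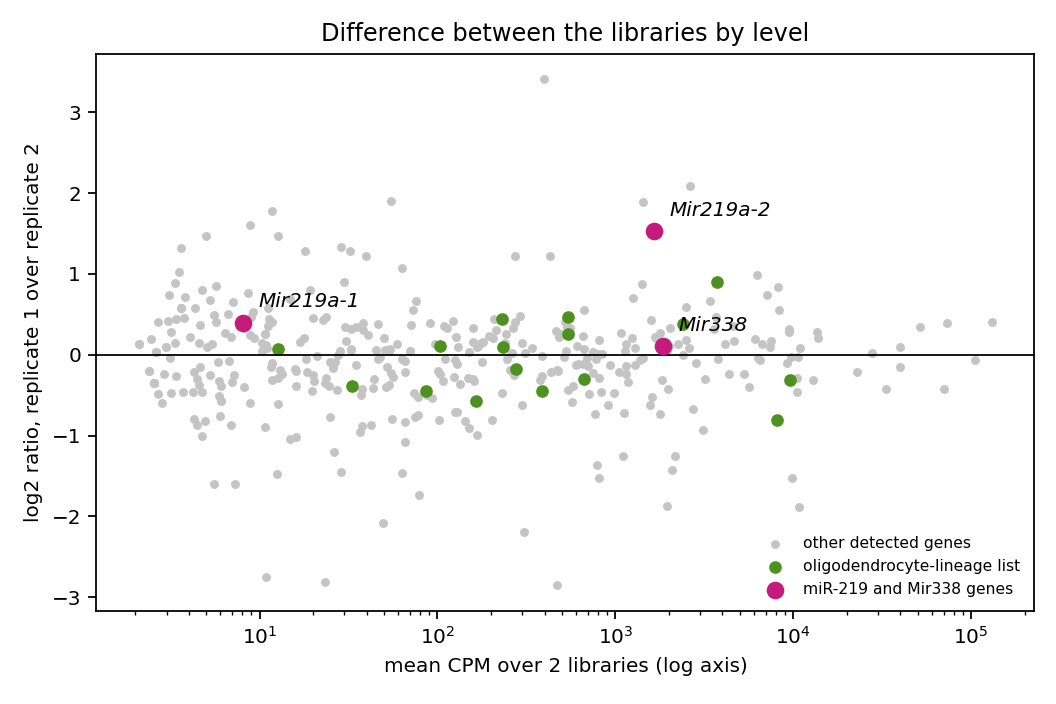
Log2 ratio of replicate 1 over replicate 2 against mean CPM (log axis) for the 401 detected genes, with miR-219 and Mir338 genes in magenta, the oligodendrocyte-lineage list in green and other genes in grey; the black line marks equality. Mir219a-2 lies at 1.53, Mir219a-1 at 0.39 and Mir338 at 0.10.

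Other microRNAs described in the oligodendrocyte lineage were mostly present. Of 18 listed genes 16 were detected, where 18.2% of all microRNA genes were, and the list was written with earlier results of these data known. The whole list reached 25059 CPM in replicate 1 against 29153 CPM in replicate 2. Of the 16, 12 differed between the libraries, 5 higher and 7 lower in replicate 1, where 50.9% of detected genes differed. The median difference of the 16 was 1.31-fold. All 16 also passed a minimum of 10 CPM, at which 11 of them differed, where 63.9% of all genes passing it did. Many genes of the list are also abundant in other cells of the brain, so their levels are not a measure of oligodendrocytes.

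Mir23a, described as a repressor of lamin B1 and a promoter of myelination, was the highest at 9587 ± 1570 CPM (SD, n = 2), and its cluster neighbour Mir27a was at 86.7 ± 20.3 CPM. Mir23a was 1.24-fold lower in replicate 1 than in replicate 2 (adjusted exact binomial p = 3.53e-132). Mir138-1 and Mir138-2, whose product has been tied to early oligodendrocyte differentiation, were at 3721 ± 1539 CPM and 2396 ± 412 CPM. Mir138-1 was 1.86-fold higher in replicate 1, with an adjusted exact binomial p too small for double precision. This was the widest difference among the detected genes of the list, and it was narrower than that of Mir219a-2. In placed reads, the precursor-associated genes of the miR-17-92 cluster were lower than Mir338. Mir17 was at 539 ± 114 CPM, Mir92-1 at 386 ± 88.0 CPM and Mir20a at 234 ± 7.73 CPM. Mir92-1, like Mir138-1 and Mir138-2, shares a mature product with another gene, and reads matching both loci entered no count. Mir18 was at 33.2 ± 6.83 CPM, and Mir19a and Mir19b-1 had no more than 3 counts in either library. Mir125a was at 8128 ± 3216 CPM and Mir32, described as a regulator of myelin protein genes, at 12.8 ± 0.228 CPM. Mir204, Mir146, Mir212, Mir7-2, Mir145a and Mir7-1 had means between 103 and 664 CPM.

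By distance of log2(CPM + 1) over the 2 libraries, the detected genes nearest to Mir338 were Mir342 (distance 0.033), Mir1839 (0.11) and Mir181d (0.14). Mir342 was at 1948 CPM (replicate 1) and 1835 CPM (replicate 2). Those nearest to Mir219a-2 were farther away, namely Mir451a (0.49), Mir298 (0.50) and Mir29c (0.69). Mir451a was at 1807 CPM (replicate 1) and 1007 CPM (replicate 2), and Mir298 at 2255 and 618 CPM, both higher in replicate 1 as Mir219a-2 was. That shared direction follows from choosing genes by these same values. Mir7066 (0.052), Mir764 (0.20) and Mir6990 (0.21) were nearest to Mir219a-1. With 2 libraries this likeness reflects level and 1 ratio only.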

How the data were processed

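Small RNA libraries of fragments under 30 nt, per the labels, were made from total RNA of hippocampus, with 2 replicates. The authors deposited whole-number counts per microRNA gene without normalization, for both strands together, the gene's strand and the opposite strand. The labels name assembly mm10, and the read-me deposited beside the tables names annotation M21. The aligner and counting program are not given in the sources used here. The 4 rows that name no gene held 63.9% and 65.9% of reads and entered neither library sizes nor tests.

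Same-strand counts were scaled to CPM over the 2202 genes. Wilson 95% intervals were computed with SciPy 1.17.1. Replicates 1 and 2 were compared at each of the 401 detected genes with an exact binomial test (two-sided), using TMM sizes from edgeR 4.0.16 (R 4.3.3), Benjamini-Hochberg adjustment at 0.05 and 0.5 added to counts in log2 ratios. The procedure was tested on simulated data with counting error only, which does not cover further spread between libraries. Size factors from DESeq2 1.42.0, other filters, columns and added counts were tried. RNAfold 2.7.2 gave the predicted energies. Products and hairpins are from RefSeq (GRCm38.p6), which held all 5 members, and shared stretches of 20 nt or more were sought in the M21 hairpins of all genes.

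The members and lists were chosen with earlier results of these data known. Genes are named when they are members, overlap or share sequence with one, are among the 3 nearest to a detected member or are on the lineage list. Cell type markers from the fixed lists are named where a list sum turns on them or where they were low or not detected. Mir24-1, Mir3074-1 and the Mir181a and Mir181b genes were named after their values were seen.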

Additional observations from a re-analysis of the deposited data

How the results depend on the processing

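Of 84 values recomputed under alternatives, 66 kept their direction and their side of the threshold or stayed within the replicate spread or 1.5 times the count, and 18 moved. Part of the 66 was fixed in advance. With 2 libraries, a level or ratio taken from a single library always lies within the replicate spread, so leaving out a library could not move it. With both strands together no member was detected (0 in place of 3), and levels were 0 CPM for Mir219a-1 and Mir338, 0.158 CPM for Mir219a-2 and 0.158 CPM for the sum, because their reads overlap a second gene. In the opposite-strand column, whose total is small, levels were 5.86 CPM for Mir219a-1, 0 CPM for Mir219a-2, 22478 CPM for Mir219b, 109 CPM for Mir219c, 21.6 CPM for Mir338 and 22614 CPM for the sum. With the 5 most abundant genes left out of the total, Mir219a-1 was at 14.2 CPM, Mir219a-2 at 2960 CPM, Mir338 at 3280 CPM and the sum at 6254 CPM. Scaled over all reads, Mir219a-1 was at 2.83 CPM, Mir219a-2 at 589 CPM, Mir338 at 654 CPM and the sum at 1245 CPM; the move of Mir219a-2 is as large as the others and lies within its wide replicate spread.

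The number of genes that differed between the libraries was 204, and 184 to 210 under the alternatives. The log2 ratio of Mir219a-2 lay between 1.5 and 1.57, that of Mir338 0.077 to 0.15, and neither gene's call changed under the scalings and filters run. The added count enters the log2 ratio and not the test, so it could not change a call. Mir219a-1 stayed short of the threshold wherever it was tested, but at a minimum of 10 CPM it was not tested and 2 members were detected in place of 3. With both strands together no ratio of a member could be formed. Leaving out replicate 1 or replicate 2 gave log2 ratios of Mir219a-2 to Mir338 of -1.07 and 0.36, and leaves no second library to test against. These ratios had opposite signs, although both were counted as within the replicate spread. No paired analysis was possible because there was 1 group.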
